A study of Mus musculus with 27 samples.

Results

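The hippocampus of mice infused with a control IgG was compared with that of mice infused with PBS. The members are the 9 hippocampal libraries whose labels give either treatment (control IgG, n = 4 mice; PBS, n = 5 mice), of 27 RNA-seq libraries from 14 mice in all. Every mouse was a wild-type C57Bl/6J male, 8 weeks old at the start, and received its infusion by osmotic pump into the right lateral ventricle for 14 days at 0.25 µl per hour. The control IgG mice carry the numbers 10, 15, 37 and 75, the PBS mice the numbers 14, 32, 33, 38 and 74, and values are listed in these orders throughout. The other 18 libraries are the cortices of PBS mice (n = 5), of control IgG mice (n = 5) and of α-IgLON5 mice (n = 4) and the hippocampi of α-IgLON5 mice (n = 4). These α-IgLON5 mice received human autoantibodies to the neuronal adhesion molecule IgLON5. Control IgG mouse 11 is represented by its cortex alone. The hippocampal libraries held 29098828 to 58550621 counts (median 34061205) in PBS mice and 39479753 to 52212204 (median 44314050.5) in control IgG mice.

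The labels call the control antibody mIgG and describe a non-reactive human monoclonal antibody, whereas the study's own account of the sequenced mice names pCtrl, IgG from the serum of a healthy person. It is called control IgG here, since the labels and that account differ. PBS mice received the vehicle with no antibody, so the comparison addresses what a human IgG without the IgLON5 target does to hippocampal RNA. A control for foreign protein other than IgG was not part of the groups used here. Within a tissue, each library comes from a separate mouse.

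IgG reaching brain tissue can be bound by Fcγ receptors, most of which sit on microglia and on the macrophages of meninges and perivascular spaces. It can also start the classical complement cascade through C1q, and it can be carried across endothelium by the neonatal Fc receptor. The hippocampus consists of the dentate gyrus and the fields CA1, CA2 and CA3. It lies under the neocortex, separated from it by white matter, and borders the lateral ventricle, the thalamus and the choroid plexus. These neighbours each have marker genes of their own, so their RNA can be followed in a dissected sample.

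The tissue labels were checked against markers, with levels given as CPM, counts scaled to library size with TMM factors. The summed CPM of 14 dentate gyrus markers was 697.3 to 1472 in the 9 hippocampi and 614.1 to 705.3 in the PBS cortices. The control IgG hippocampus of mouse 37, at 697.3, was the only hippocampus of the 9 inside the PBS cortical range. Prox1, the transcription factor of dentate granule cells, was at 226, 134, 154, 127 and 172 CPM in the PBS hippocampi and at 81.6, 178, 54.1 and 120 CPM in the control IgG hippocampi, against a mean of 19 CPM in the PBS cortices. Prox1 was therefore lowest in mice 37 and 10. The labels also give the cell type as neurons, but markers of glia were measured in all 9 hippocampi. The summed CPM was 8360 to 9933 for homeostatic astrocytes, 2331 to 5144 for oligodendrocytes and myelin and 380.8 to 472.2 for homeostatic microglia. In such bulk tissue, fewer cells of a type and less RNA per cell cannot be told apart.

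Each library was placed between hippocampus and cortex with genes chosen outside the comparison. The cortex position is the mean log2 CPM of the 100 genes most higher in α-IgLON5 cortices minus that of the 100 genes most higher in α-IgLON5 hippocampi, scaled so that the mean α-IgLON5 hippocampus is 0% and the mean α-IgLON5 cortex is 100%. PBS hippocampi lay at -3.04%, 12.2%, 15.6%, 11.0% and -3.94% of the way to cortex. Control IgG hippocampi lay at 44.5%, 13.7%, 68.9% and 20.3%. Mice 37 and 10 thus stood apart from every PBS hippocampus, mouse 75 lay just above them and mouse 15 lay within their range. The means were 36.9% ± 25.2 (SD, n = 4) for control IgG and 6.36% ± 9.15 (SD, n = 5) for PBS, a difference of 30.5 percentage points (two-sided exact permutation test, p = 0.0318; the smallest p that 4 against 5 libraries allow is 0.0159). Without mouse 37 the difference was 19.8 points (exact p = 0.0714). Leaving out each library in turn gave exact p-values from 0.0286 to 0.0714, under 0.05 only without PBS mouse 33 or control IgG mouse 15. With 25 genes a side the difference was 26.3 points (exact p = 0.0635). The α-IgLON5 hippocampus of mouse 9, part of the 0% mean, lay at -25.0%. With 0% set without it, control IgG hippocampi averaged 31.1% and PBS hippocampi -2.16%, a difference of 33.3 points (exact p = 0.0318). Of the 100 genes on the cortex side 12 are induced by neuronal activity, among them Fos, Arc and Npas4, and 2 of the 100 on the hippocampus side encode immunoglobulin, so the position partly measures these. With these genes replaced by the next in order the difference was 31.2 points (exact p = 0.0318). In the cortex the same measure was 114% ± 4.62 (SD, n = 5) for control IgG and 102% ± 8.54 (SD, n = 5) for PBS.

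**Figure D1:**
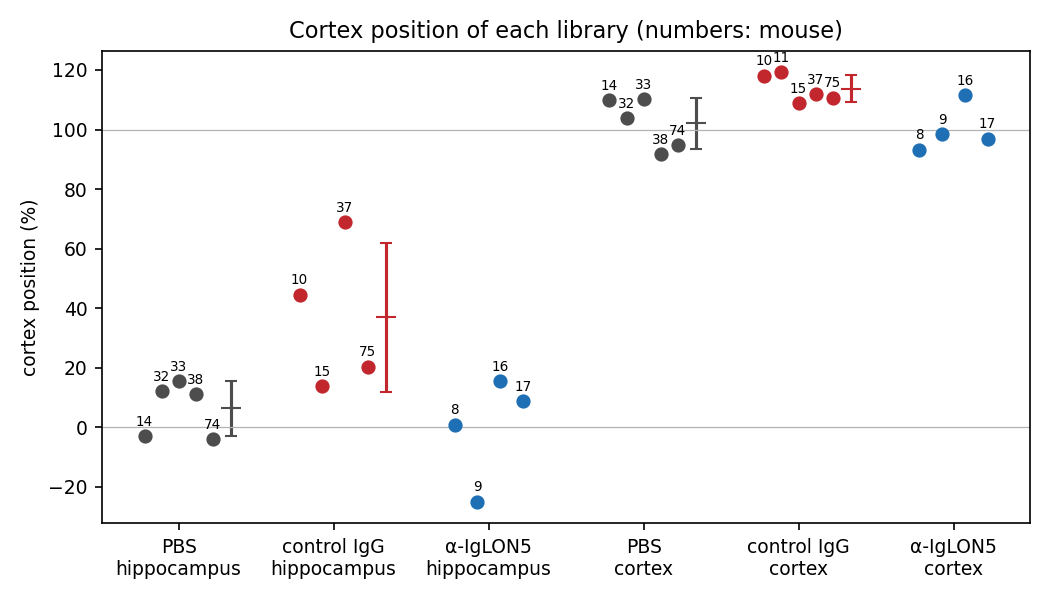
Cortex position in percent (y axis) for each of the 27 libraries, by treatment and tissue (x axis), with the mouse number at each point and, for PBS and control IgG, the mean and SD. The control IgG hippocampi of mice 10 and 37 lie at 44.5% and 68.9%, above all PBS hippocampi, whose highest is at 15.6%.

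A total of 20271 genes were tested with edgeR. With both the adjusted p (threshold 0.05) and a change of more than 2-fold required, 10 genes were higher (0.0493% of genes tested) and 3 were lower (0.0148%) in control IgG hippocampi. Without the fold threshold, 27 genes were higher (0.133%) and 12 were lower (0.0592%), and the smallest adjusted p was 0.0433. At an unadjusted p under 0.05 there were 1418 genes higher (7%) and 1410 lower (6.96%). The groups did not overlap for 380 genes with all control IgG hippocampi above the PBS hippocampi (1.87%) and for 375 with all below (1.85%). The median log2 fold change over all genes was 0.0029. Without both mice 37 and 10, 0 genes passed the adjusted p, with a smallest adjusted p of 1 and 561 genes at an unadjusted p under 0.05. That fit keeps only the control IgG hippocampi nearest to PBS in cortex position, so fewer calls follow in part from the choice. With the cortex position as a covariate 0 passed, with a smallest adjusted p of 0.988 and 921 genes at an unadjusted p under 0.05. The cortex position is itself made from tissue genes, 7 of them among the 39 that passed, so this covariate removes part of their difference by construction. When the 9 hippocampi were fitted alone, 0 genes passed (smallest adjusted p 0.252, 2973 genes at an unadjusted p under 0.05). DESeq2 on all libraries called 49 genes higher and 20 lower, or 292 and 250 without the fold threshold. With the mouse as a block over its tissues limma called 4 higher and 12 lower, or 24 and 37 without the fold threshold. Of 83 named genes that edgeR did not call and for which DESeq2 gave an adjusted p, 29 passed it with DESeq2, and 33 of 90 passed with edgeR without control IgG mouse 15. Many named genes were chosen for a small unadjusted p in this contrast, which raises these shares. Over all genes, DESeq2 called 292 higher and 250 lower of 17103 with an adjusted p. Without control IgG mouse 15 edgeR called 359 higher and 402 lower of 20271, with no fold threshold. Adjusted p-values and statements of no call below are those of edgeR with all libraries, and most of the 29 named genes that passed with DESeq2 are given beside their list.

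**Figure D2:**
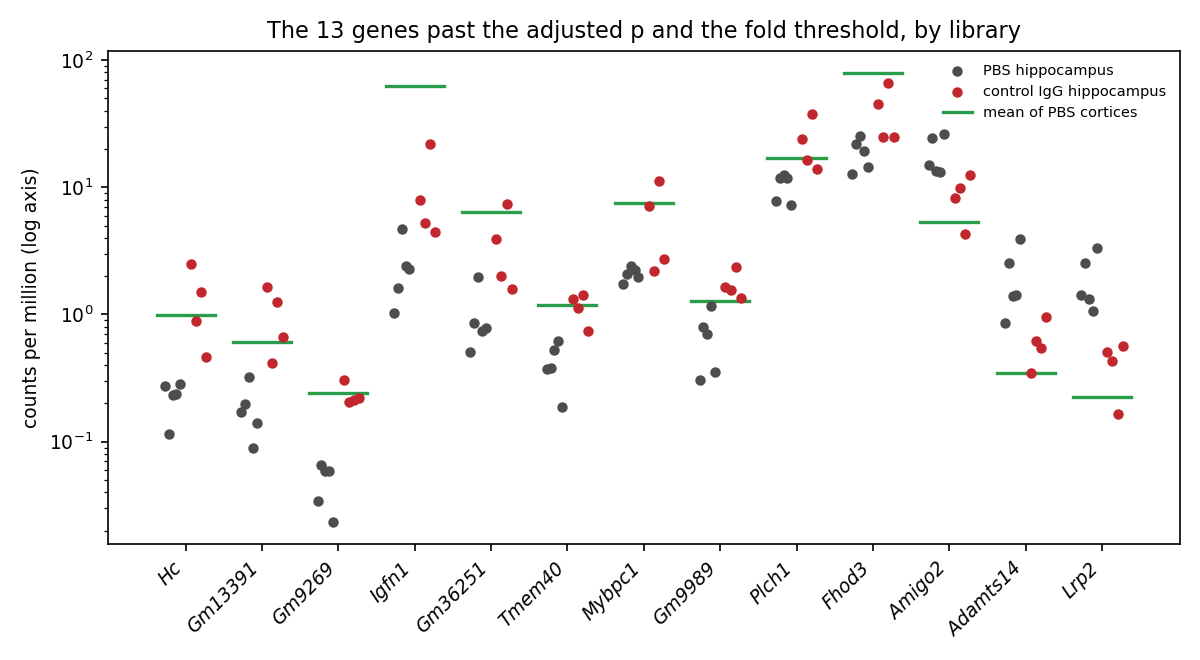
CPM on a log axis (y axis) of the 13 genes past the adjusted p and the fold threshold (x axis, ordered by fold change), with 1 point per hippocampal library of PBS (grey) and control IgG (red) mice and a green line at the mean of the PBS cortices. For Hc, Plch1 and Lrp2 the groups do not overlap, while for Igfn1, Fhod3 and Mybpc1 at least 1 control IgG hippocampus lies within the PBS range.

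Hc, which encodes complement component C5, had the largest increase of the 10 genes. It was at 0.273, 0.115, 0.235, 0.237 and 0.283 CPM in PBS hippocampi (7 to 12 counts per library) and at 2.49, 0.884, 1.499 and 0.467 CPM in control IgG hippocampi (19 to 122 counts). All control IgG hippocampi were above all PBS hippocampi, with a log2 fold change of 2.58 ± 0.518 (SE, adjusted p = 0.0433). Hc lies on chromosome 2 at 34983331 to 35061438 (GRCm38, minus strand). In the cortex Hc went the other way, with a mean of 0.401 CPM for control IgG and 0.997 CPM for PBS (log2 fold change -1.27), which did not pass the adjusted p. The levels in mice 10 and 37 exceeded the mean of each cortical group, the highest of which was 1.09 CPM in α-IgLON5 mice. Without both mice 37 and 10 the log2 fold change was 1.61 (adjusted p = 1).

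Igfn1 encodes a protein with immunoglobulin-like and fibronectin type III domains and was the gene most higher in cortex among the 100 of the cortex position. It was at 1.02, 1.62, 4.72, 2.40 and 2.28 CPM in PBS hippocampi and at 7.89, 5.23, 21.9 and 4.44 CPM in control IgG hippocampi, where mouse 75 fell inside the PBS range. The log2 fold change was 2.04 ± 0.389 (SE, adjusted p = 0.0433), and the PBS cortices averaged 62.4 CPM. Igfn1 lies on chromosome 1 at 135953578 to 136006342. Fhod3, a formin that organises actin filaments, was also highest in mice 37 and 10, with 12.6, 22.1, 25.1, 19.1 and 14.4 CPM in PBS and 45.4, 24.8, 66.2 and 25.04 CPM in control IgG hippocampi. Mice 10 and 37 were above all PBS mice and mice 15 and 75 were within their range (log2 fold change 1.11 ± 0.23, SE, adjusted p = 0.0433). The gene spans chromosome 18, 24708623 to 25133501.

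Mybpc1, a myosin-binding protein first known from slow skeletal muscle, was at 1.74, 2.10, 2.40, 2.23 and 1.95 CPM in PBS and at 7.13, 2.20, 11.1 and 2.73 CPM in control IgG hippocampi. Mice 10 and 37 were again highest, mouse 75 was just above the PBS range and mouse 15 within it, and the log2 fold change was 1.47 ± 0.298 (SE, adjusted p = 0.0433). Plch1, a phospholipase C of the eta type, was at 7.85, 11.9, 12.5, 11.9 and 7.23 CPM in PBS and at 23.9, 16.3, 37.6 and 13.8 CPM in control IgG hippocampi. All control IgG values of Plch1 lay above all PBS values (log2 fold change 1.15 ± 0.249, SE, adjusted p = 0.0482). In mice 10 and 37 it was above the mean of the PBS cortices, at 16.9 CPM, which is the highest of the cortical groups, and it was not called between α-IgLON5 cortex and hippocampus. Plch1 is on chromosome 3 at 63696234 to 63899472. Tmem40, a membrane protein, was at 0.375, 0.377, 0.528, 0.623 and 0.188 CPM in PBS and at 1.33, 1.13, 1.43 and 0.737 CPM in control IgG hippocampi, again without overlap (1.48 ± 0.298 on the log2 scale, SE, adjusted p = 0.0433).

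The other 4 higher genes carry no protein name. The lincRNA Gm13391 was at 0.0890 to 0.323 CPM in PBS and at 1.66, 0.414, 1.26 and 0.663 CPM in control IgG hippocampi (log2 fold change 2.41 ± 0.489, SE). The lincRNA Gm36251 was at 0.512 to 1.97 CPM in PBS and at 3.94, 2.01, 7.45 and 1.596 CPM in control IgG hippocampi (1.95 ± 0.411, SE). Both were highest in mice 10 and 37, and Gm36251 overlapped between the groups in mouse 75. Gm9989, a processed transcript, was at 0.307 to 1.16 CPM in PBS and at 1.64, 1.56, 2.38 and 1.35 CPM in control IgG hippocampi (1.36 ± 0.294, SE), and each of these 4 values was above the mean of every cortical group. The same held for 2 control IgG hippocampi in Tmem40 and in Gm13391, and for 1 in Mybpc1 and in Gm36251. The pseudogene Gm9269 rested on 1 to 4 counts per PBS library and 9 to 15 counts per control IgG library (log2 fold change 2.19 ± 0.431, SE), and whether it shares reads with related copies was not tested.

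Of the 3 lower genes, Lrp2, the endocytic receptor megalin, had the smallest unadjusted p of all genes. It was at 1.43, 2.54, 1.32, 1.07 and 3.32 CPM in PBS and at 0.511, 0.432, 0.167 and 0.565 CPM in control IgG hippocampi. The groups did not overlap, and Lrp2 fell by 2.21 ± 0.377 on the log2 scale (SE, adjusted p = 0.0433). Lrp2 lies on chromosome 2 at 69424340 to 69586065 (minus strand), was 0.224 CPM on average in the PBS cortices, and had a log2 fold change of -1.98 without both mice 37 and 10 (adjusted p = 1). Adamts14, a metalloproteinase that trims procollagen, was at 0.853, 2.54, 1.41, 1.43 and 3.91 CPM in PBS and at 0.347, 0.621, 0.547 and 0.958 CPM in control IgG hippocampi. It fell by 1.74 ± 0.33 (SE, adjusted p = 0.0433), with mouse 75 above the lowest PBS mouse. For both genes PBS mice 32 and 74 were highest, and the same 2 PBS libraries were highest in markers of ependyma, as given below. The part of ependyma in these changes was not tested.

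Amigo2, an adhesion molecule used as a marker of CA2 neurons, was at 15.0, 24.3, 13.6, 13.1 and 26.3 CPM in PBS and at 8.28, 9.85, 4.26 and 12.6 CPM in control IgG hippocampi. The groups did not overlap, and Amigo2 fell by 1.08 ± 0.225 on the log2 scale (SE, adjusted p = 0.0433). It lies on chromosome 15 at 97244125 to 97247287, and the PBS cortices averaged 5.38 CPM. Leaving out mouse 37, mouse 10, PBS mouse 32 or PBS mouse 74 left 0 genes past both thresholds, and leaving out PBS mouse 14 left 3 lower and 0 higher. Leaving out the control IgG mice nearest to PBS raised the counts, to 79 higher and 48 lower without mouse 15 and to 54 and 23 without mouse 75. The counts were 20 and 11 without PBS mouse 33 and 40 and 38 without PBS mouse 38.

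**Figure D3:**
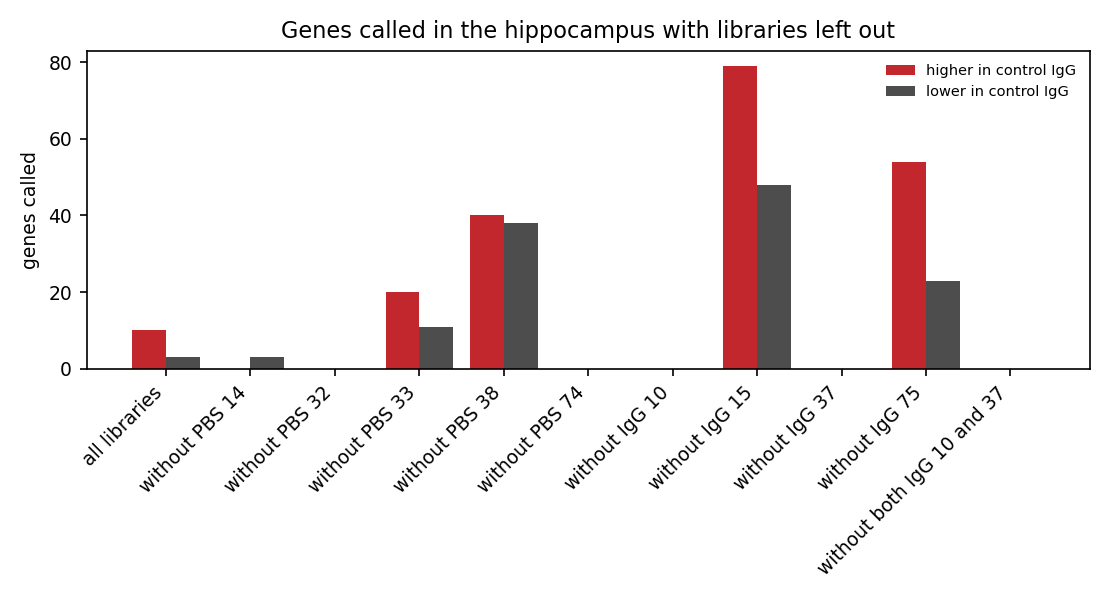
Number of genes past the adjusted p and the fold threshold (y axis) with all libraries and with the library or libraries named on the x axis left out, higher (red) and lower (grey) in control IgG hippocampi. The count is 0 in both directions without control IgG mouse 10 or 37 and without PBS mouse 32 or 74, and rises to 79 higher without control IgG mouse 15.

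The tissue difference was then measured in α-IgLON5 mice, whose libraries belong to neither group of the contrast, although they share its filter, scaling and estimate of the spread. At an adjusted p under 0.05, 2441 genes were higher in cortex (12% of genes tested) and 2401 were higher in hippocampus (11.8%). Both tissues came from the same α-IgLON5 mice, and the fit held no term for the mouse. Of the 27 genes higher in control IgG hippocampi, 23 were among the genes higher in cortex and 0 among those higher in hippocampus. The 4 others were Gm13391, Gm9989, Plch1 and Scpep1, a serine carboxypeptidase. All of the 12 lower genes were among those higher in hippocampus. Mouse 37 was the highest control IgG mouse for 23 of the 27 higher genes, and mouse 10 for 4. For the 12 lower genes mouse 37 was lowest in 8, mouse 10 in 2 and mouse 75 in 2. Mice 15 and 75 were both outside the PBS range, on the side of the change, for 16 of the 27 and for 9 of the 12. These genes were chosen by a test on these same libraries, which favours values outside the PBS range. Over all genes, 1.87% had every control IgG hippocampus above the PBS hippocampi and 1.85% had every one below.

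**Figure D4:**
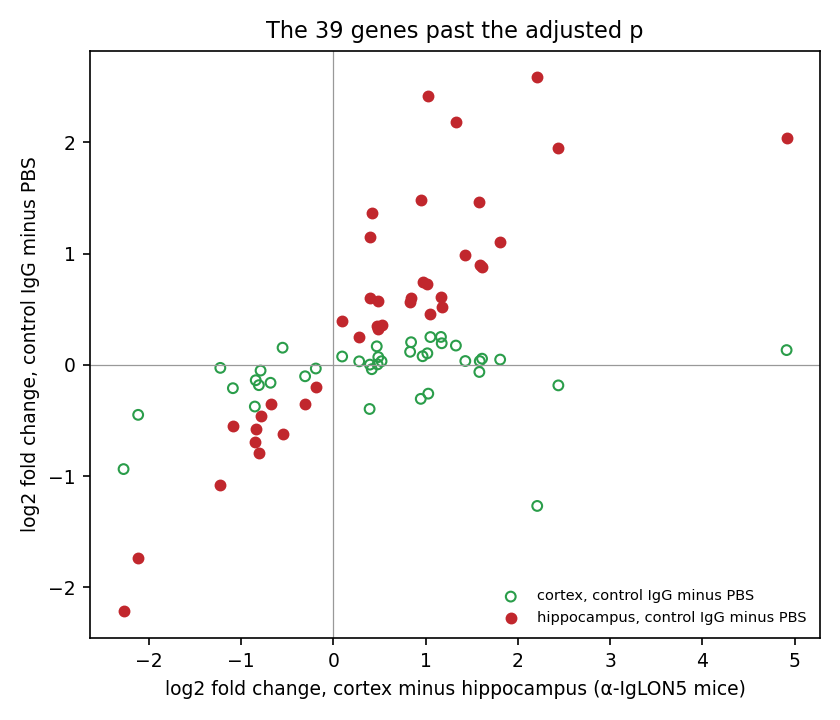
Log2 fold change of control IgG minus PBS (y axis) in the hippocampus (filled) and in the cortex (open) for the 39 genes past the adjusted p, against their log2 fold change between cortex and hippocampus in α-IgLON5 mice (x axis). The hippocampal values lie above 0 where the tissue difference is above 0 and below 0 where it is below 0, while the cortical values have medians of 0.05 for the 27 higher and -0.15 for the 12 lower genes.

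The wider set of genes at an unadjusted p under 0.05, which includes these 39, was described in the same way. Of the 1418 genes higher at that level, 794 were higher in cortex and 17 higher in hippocampus. Of the 1410 lower, 773 were higher in hippocampus and 19 higher in cortex. Over the 2441 cortex-higher genes the median log2 fold change of control IgG was 0.14, and 84.4% of them were above 0, against 50.7% of all genes. Over the 2401 hippocampus-higher genes the median was -0.14 and 16.8% were above 0. Among the 547 cortex-higher genes with a tissue fold change above 2 the median was 0.40, and among the corresponding 499 hippocampus-higher genes it was -0.48. Without both mice 37 and 10, which leaves 2 control IgG hippocampi, the medians of these 547 and 499 genes were 0.12 and -0.20. These mice had the highest cortex positions, a measure made from genes that differ between the tissues. Smaller medians without them therefore follow in part by construction, and do not show whether the shift belongs to these mice alone. For control IgG against PBS in the cortex the medians of the 547 and 499 genes were 0.14 and -0.16.

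The remaining 26 genes past the adjusted p changed by less than 2-fold. Higher genes included Ttc9b at 36.7 ± 3.15 CPM in PBS and 61.0 ± 19.3 CPM in control IgG hippocampi (SD; log2 fold change 0.73), and Ngef, a guanine nucleotide exchange factor that acts downstream of Eph receptors, at 87.8 to 118 CPM in PBS and 119 to 165 CPM in control IgG hippocampi (0.46). Tyro3, a receptor tyrosine kinase, was at 90.5 to 142 CPM in PBS and at 185, 135, 210 and 142 CPM in control IgG hippocampi (0.57). Plxnd1, a semaphorin receptor, was at 31.3 to 57.3 CPM in PBS and at 87.2, 56.0, 123 and 50.6 CPM in control IgG hippocampi (0.88). Mice 15 and 75 fell within the PBS range for Tyro3 and Plxnd1 and above it for Ttc9b and Ngef. Lower genes included Slit3, an axon guidance ligand, at 82.9 to 102 CPM in PBS and at 60.7, 82.6, 49.99 and 77.6 CPM in control IgG hippocampi (-0.46). Akap13, an anchoring protein for protein kinase A, was at 79.2 to 100 CPM in PBS and at 57.7, 71.7, 44.6 and 66.9 CPM in control IgG hippocampi (-0.57). Cfap44, a protein of cilia and flagella, was at 9.68 to 12.8 CPM in PBS and 6.54 to 7.82 CPM in control IgG hippocampi (-0.70), and was among the lower genes without overlap.

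In the cortex, 0 genes passed the adjusted p between control IgG and PBS (0% of genes tested; smallest adjusted p 0.399, edgeR, 1650 genes at an unadjusted p under 0.05). Among the 39 hippocampal genes the smallest cortical adjusted p was 0.457 for the 27 higher genes, in Ngef, and 0.459 for the 12 lower genes, in Cfap44. Their median cortical log2 fold change was 0.05 for the higher and -0.15 for the lower genes. The difference between the tissues was tested as an interaction, in which 0 genes passed the adjusted p (0%; smallest adjusted p 0.252, 1561 genes at an unadjusted p under 0.05). DESeq2 called 8 genes in that interaction. A difference of the control IgG effect between hippocampus and cortex was therefore not shown for any gene by the edgeR fit.

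Genes that bind or respond to IgG gave no call in the hippocampus. Here and in the lists below, hippocampal counts at an unadjusted p under 0.05 are to be read against 7% of all genes higher and 6.96% lower. All of the 8 tested Fc receptor genes had a log2 fold change above 0, with a median of 0.30 against 0.0029 over all genes, 0 of the 8 had an unadjusted p under 0.05, and the smallest adjusted p was 0.493. Fcgr1, the high-affinity receptor, was at 3.68, 2.95, 2.17, 3.18 and 3.01 CPM in PBS and at 3.02, 4.68, 3.26 and 3.83 CPM in control IgG hippocampi. Fcgr2b, the inhibitory receptor, was at 3.72 to 4.99 CPM in PBS and 4.37 to 6.66 CPM in control IgG hippocampi (log2 fold change 0.35 ± 0.27, SE, adjusted p = 0.6). Fcgr3 was at 8.01 to 12.6 CPM in PBS and at 10.6, 13.8, 10.5 and 10.3 CPM in control IgG hippocampi (0.21 ± 0.142). For all 3 genes the groups overlapped and mouse 15 was highest. Fcgr4 was near the detection limit, with 2 to 10 counts in PBS and 2 to 33 counts in control IgG hippocampi. Fcer1g, the shared signalling chain, had a log2 fold change of 0.07 ± 0.252, and Fcgrt, the neonatal Fc receptor, one of 0.29 ± 0.178. Among 12 genes of Fc receptor signalling the median was 0.05, with 0 at an unadjusted p under 0.05.

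Complement genes other than Hc did not pass the adjusted p. The initiator C1qa was at 49.8, 36.8, 42.9, 40.4 and 40.0 CPM in PBS and at 45.1, 55.1, 48.0 and 49.5 CPM in control IgG hippocampi (log2 fold change 0.24 ± 0.142, SE, adjusted p = 0.485). C1qb and C1qc had log2 fold changes of 0.19 and 0.21, and C4b one of 0.07. C3, the central component, was at 0.147 to 0.942 CPM in PBS and at 0.470, 1.62, 0.238 and 0.196 CPM in control IgG hippocampi, so that only mouse 15 exceeded the PBS range. Of 11 tested components, 1 was higher at an unadjusted p under 0.05 and 0 were lower, with a median log2 fold change of 0.11. That member was C7, a part of the membrane attack complex, at 0.307 to 0.880 CPM in PBS and at 1.23, 0.827, 1.33 and 0.614 CPM in control IgG hippocampi (adjusted p = 0.231), and it was also higher in α-IgLON5 cortex than hippocampus, by 1.72 on the log2 scale. Of 13 regulators and receptors 1 was higher at that level, the C5a receptor C5ar2 (0.52 ± 0.213, SE, adjusted p = 0.249), and 12 had a log2 fold change above 0. Hc was not on the complement list.

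**Figure D5:**
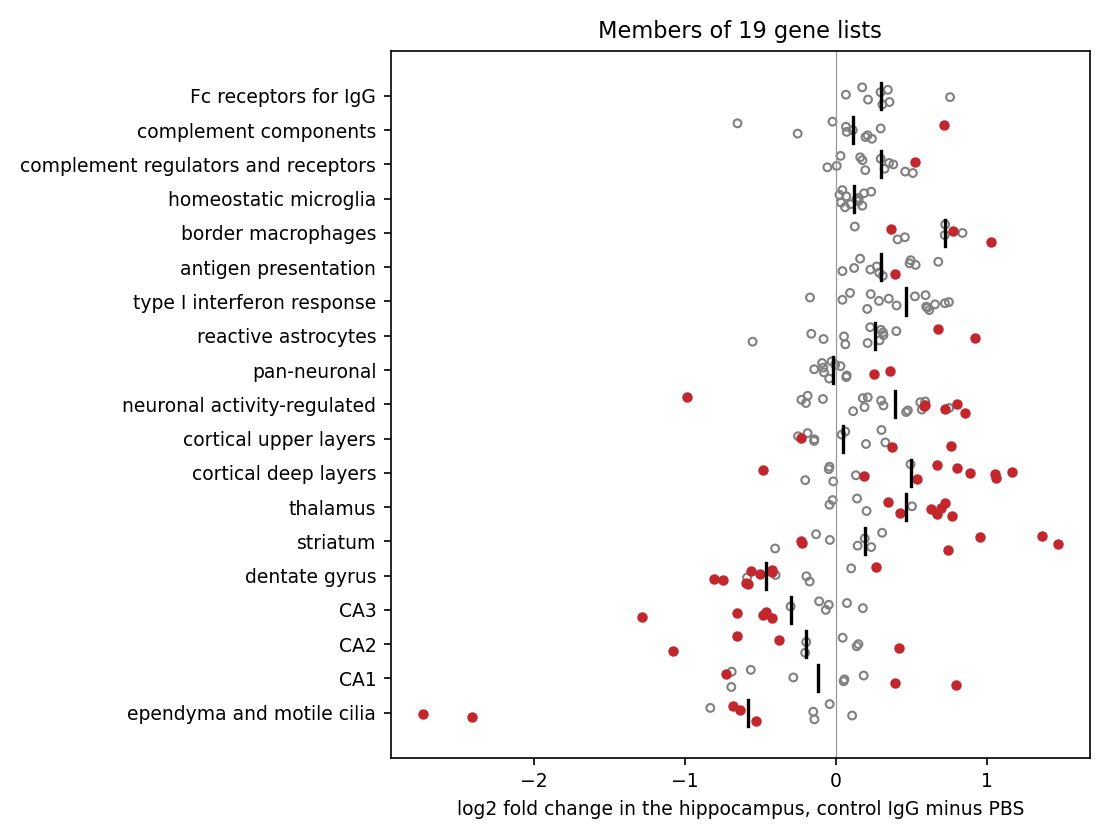
Log2 fold change of control IgG minus PBS in the hippocampus (x axis) for the tested members of 19 gene lists (y axis), 1 point per gene, filled where the unadjusted p is under 0.05, with a bar at the list's median. Fc receptors have a median of 0.30 and no filled point, deep-layer and thalamic markers have medians of 0.49 and 0.46, and dentate gyrus and CA3 markers have medians of -0.46 and -0.30.

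Genes of resident microglia gave no call. All 12 homeostatic microglial genes had a log2 fold change above 0, but the median was 0.12 and 0 had an unadjusted p under 0.05. Csf1r, the receptor that microglia need to survive, was at 118, 97.2, 91.1, 102 and 106 CPM in PBS and at 112, 125, 115 and 106 CPM in control IgG hippocampi. Aif1, which encodes the microglial marker Iba1, had a log2 fold change of 0.11 ± 0.306 (SE), Cd68, a lysosomal protein of phagocytes, one of 0.04 ± 0.109, and Trem2, a lipid receptor, one of 0.19 ± 0.124. All of the 13 pan-myeloid and lysosomal genes, to which Aif1 and Cd68 belong, had a log2 fold change above 0 (median 0.17), 1 had an unadjusted p under 0.05, the lysosomal protease Ctsb (0.11, adjusted p = 0.305), and 0 passed the adjusted p. Their summed CPM was 610.0, 559.4, 577.2, 597.8 and 574.4 in PBS and 628.5, 657.9, 636.3 and 630.4 in control IgG hippocampi. These sums did not overlap between the groups, but Ctsb had by far the most counts of the list, 12307 to 25249 per PBS library. The next, Ctss, had 1931 to 3388, so the sums mostly follow Ctsb. Of all single genes, 1.87% had every control IgG hippocampus above the PBS hippocampi. The largest log2 fold changes of that list were 0.83 ± 0.544 (SE) for Cybb, a subunit of the phagocyte oxidase, and 0.50 ± 0.383 for Lyz2, lysozyme. Of 14 genes of disease-associated microglia, Ctsd, a lysosomal protease, was higher at an unadjusted p under 0.05 (adjusted p = 0.271) and Lpl, lipoprotein lipase, was lower. Lpl was at 23.5, 43.4, 28.3, 18.99 and 42.8 CPM in PBS and at 13.1, 19.5, 11.1 and 21.7 CPM in control IgG hippocampi (log2 fold change -0.95 ± 0.234, SE, adjusted p = 0.0677), and it too was highest in PBS mice 32 and 74. Lpl passed with DESeq2.

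Markers of border macrophages, the phagocytes of meninges and perivascular spaces, were higher in every control IgG mouse than in most PBS mice. Their summed CPM was 31.1, 34.6, 34.3, 48.2 and 30.5 in PBS and 45.5, 46.1, 61.3 and 56.5 in control IgG hippocampi, with PBS mouse 38 inside the control IgG range. All 9 tested members had a log2 fold change above 0, with a median of 0.72, 3 had an unadjusted p under 0.05 and 0 passed the adjusted p (smallest 0.282). Mrc1, the mannose receptor, was at 3.68, 6.97, 6.36, 8.40 and 3.65 CPM in PBS and at 10.2, 9.98, 14.8 and 12.5 CPM in control IgG hippocampi (log2 fold change 1.02 ± 0.483, SE, adjusted p = 0.339). Ms4a7 was at 0.542 to 0.712 CPM in PBS and 0.899 to 1.24 CPM in control IgG hippocampi (0.77 ± 0.375). For Mrc1 and Ms4a7 the groups did not overlap. In the cortex the list's median log2 fold change was -0.0026 with 0 members at an unadjusted p under 0.05. Meningeal and fibroblast markers had a summed CPM of 162.9 to 430.8 in PBS and 317.9 to 396.7 in control IgG hippocampi, and all 13 members had a log2 fold change above 0 (median 0.49, 0 at an unadjusted p under 0.05). Their part in the macrophage values was not tested.

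Genes of infiltrating and adaptive immune cells and of the interferon response gave no call. Of 12 antigen presentation genes 1 was higher at an unadjusted p under 0.05, H2-D1, at 25.7 to 38.4 CPM in PBS and 38.2 to 44.9 CPM in control IgG hippocampi (adjusted p = 0.145). The summed CPM of that list was highest in PBS mouse 38, at 142.6, and in control IgG mouse 15, at 155.4. Of 16 type I interferon genes 15 had a log2 fold change above 0 (median 0.46), and 0 had an unadjusted p under 0.05. Their summed CPM was 128.0 and 163.4 in mice 15 and 75, above the PBS range of 84.48 to 111.3, and 93.47 and 87.82 in mice 10 and 37, inside it. All 9 tested neutrophil and monocyte genes had a log2 fold change above 0 (median 0.83, 0 at an unadjusted p under 0.05, smallest adjusted p 0.465), with a summed CPM of 8.235 to 10.94 in PBS and 11.7, 16.33, 13.03 and 9.449 in control IgG hippocampi, where mouse 75 lay inside the PBS range. The cortical median of that list was 0.47. Of 15 chemokine and cytokine genes 12 were above 0 (median 0.40), and 1 was higher at an unadjusted p under 0.05. T cell genes summed to 2.73 to 5.02 CPM in control IgG and 3.08 to 4.01 CPM in PBS hippocampi, and B and plasma cell genes to 60.6 to 74.7 and 60.1 to 72.1 CPM. Cd3g rested on 0 to 3 counts in PBS and 2 to 21 counts in control IgG hippocampi, and the chemokine Cxcl9 on 0 to 3 and 0 to 16 counts. Both were higher at an unadjusted p under 0.05 (adjusted p = 0.158 for Cd3g and 0.231 for Cxcl9), and control IgG mouse 15 was highest for both.

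Reactive astrocyte genes were higher in 2 of 14 members at an unadjusted p under 0.05 and lower in 0 (median log2 fold change 0.26, smallest adjusted p 0.322). Of all genes, 7% were higher and 6.96% lower at that level. Gfap, the filament protein of astrocytes, was at 594, 354, 378, 388 and 451 CPM in PBS and at 446, 514, 388 and 458 CPM in control IgG hippocampi, all within the PBS range (log2 fold change 0.06 ± 0.247, SE). Cd44, a hyaluronan receptor, was at 4.23 to 8.77 CPM in PBS and at 13.6, 10.7, 21.03 and 7.14 CPM in control IgG hippocampi (adjusted p = 0.336). All 14 oligodendrocyte and myelin genes had a log2 fold change above 0 (median 0.24), and 0 had an unadjusted p under 0.05. Endothelial and pericyte genes were higher at that level in 1 of 15, near the share over all genes.

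Ependymal and ciliary genes were lower at an unadjusted p under 0.05 in 5 of 10 members and higher in 0 (median log2 fold change -0.58, smallest adjusted p 0.0685). Dnah11, a ciliary dynein, was at 0.102, 2.92, 0.587, 0.327 and 2.19 CPM in PBS and at 0.286, 0.207, 0.143 and 0.319 CPM in control IgG hippocampi. Ccdc153 was at 0, 2.72, 0.0880, 0 and 3.13 CPM in PBS and at 0.164, 0.150, 0.285 and 0.147 CPM in control IgG hippocampi. PBS mice 32 and 74 were far above the others for both genes, and of the other 3 PBS libraries those of mice 33 and 38 also exceeded every control IgG mouse for Dnah11. The summed CPM of the list was 39.5 and 38.9 in these 2 PBS mice, 24.2 to 25.8 in the other PBS mice and 22.01 to 25.7 in control IgG mice. Choroid plexus genes summed to 24.6 to 31.1 CPM in PBS and 17.6 to 26.5 CPM in control IgG hippocampi, and Ttr, which the choroid plexus makes in large amounts, was at 0.887 to 3.79 and 0.409 to 4.27 CPM.

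Hormone transcripts of the pituitary, a gland outside the brain tissue sampled, were present in several hippocampi. Prl, prolactin, was at 11.4, 2.17, 0.205, 1.07 and 800 CPM in PBS and at 14.0, 0.282, 2.52 and 9.99 CPM in control IgG hippocampi. Gh, growth hormone, was at 67.1, 11.1, 1.23, 5.43 and 2976 CPM in PBS and at 108, 2.52, 16.2 and 74.7 CPM in control IgG hippocampi. The PBS library of mouse 74 was therefore far above all others in both hormones. The log2 fold changes of -4.61 for Prl and -3.60 for Gh (adjusted p = 0.139 and 0.290) became 0.88 and 1.27 without that library (adjusted p = 0.825 and 0.753). Pomc, the precursor of corticotropin that some neurons of the hypothalamus also make, was highest in control IgG mouse 10, at 94.5 CPM.

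Of the markers of hippocampal fields, Amigo2 alone passed the adjusted p with edgeR, and Grik4, Iyd, Cpne4, Zbtb20, Wfs1, Mpped1 and Sema5a passed it as well with DESeq2. In the dentate gyrus list 8 of 14 members were lower and 1 was higher at an unadjusted p under 0.05 (median log2 fold change -0.46, smallest adjusted p 0.111). Prox1, given above, had a log2 fold change of -0.58 ± 0.206 (SE, adjusted p = 0.167). Lct, lactase, which granule cells express, was at 60.5, 26.8, 23.3, 14.6 and 35.5 CPM in PBS and at 12.7, 31.4, 7.90 and 21.2 CPM in control IgG hippocampi. Sema5a, a semaphorin, was at 225, 157, 154, 131 and 211 CPM in PBS and at 99.3, 172, 67.2 and 136 CPM in control IgG hippocampi. For Lct and Sema5a mice 10 and 37 were below the PBS range and mice 15 and 75 inside it, and for Prox1 mouse 75 was below it as well. In the CA3 list 5 of 11 were lower and 0 higher, among them Grik4, a kainate receptor subunit, at 40.2 to 68.7 CPM in PBS and at 28.8, 36.5, 24.0 and 40.5 CPM in control IgG hippocampi (log2 fold change -0.66 ± 0.149, SE, adjusted p = 0.0625). Iyd, also on that list, was lower in every control IgG mouse than in any PBS mouse, at 0.838, 2.20, 0.595 and 1.30 CPM against 2.29 to 4.33 CPM (adjusted p = 0.0674).

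In the CA1 list 1 of 10 members was lower and 2 were higher. Zbtb20, a repressor that specifies hippocampal neurons, was at 293 to 462 CPM in PBS and at 204, 358, 139 and 250 CPM in control IgG hippocampi (adjusted p = 0.0713). Wfs1, an endoplasmic reticulum protein of CA1, subiculum and some cortical neurons, was at 86.6, 121, 143, 152 and 67.8 CPM in PBS and at 178, 124, 305 and 183 CPM in control IgG hippocampi (adjusted p = 0.105). In the CA2 list 3 of 9 were lower and 1 was higher, and Amigo2 was the member that passed the adjusted p. Members of the field lists therefore lay on both sides of 0.

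Markers of cortical layers and pan-cortical genes were examined as well, of which Cplx3, Deptor, Tbr1, Cux2, Hs3st2 and Mef2c passed the adjusted p with DESeq2. In the deep-layer list 8 of 15 members were higher and 1 was lower at an unadjusted p under 0.05 (median log2 fold change 0.49), while in the upper-layer list 2 of 12 were higher and 1 lower (median 0.05). Cplx3, a complexin of the deepest cortical layer, was at 12.6, 9.24, 13.4, 12.6 and 6.24 CPM in PBS and at 30.3, 16.7, 35.8 and 13.7 CPM in control IgG hippocampi (1.16 ± 0.278, SE, adjusted p = 0.0677). Ccn2, a matricellular growth factor of the same layer, was at 17.8, 16.3, 26.5, 22.9 and 9.09 CPM in PBS and at 44.2, 32.5, 43.2 and 33.1 CPM in control IgG hippocampi (1.05 ± 0.299, adjusted p = 0.0927). The groups did not overlap for these 2 genes, and the PBS cortices averaged 31.6 CPM for Cplx3 and 37.9 CPM for Ccn2. The upper-layer transcription factor Cux2 was at 31.7 to 46.9 CPM in PBS and at 70.0, 42.6, 103 and 49.1 CPM in control IgG hippocampi, against a cortical mean of 146 CPM. Of 12 pan-cortical genes 5 were higher and 0 lower at an unadjusted p under 0.05, including Igfn1, given above, which passed the adjusted p with edgeR, and Mef2c, a transcription factor of excitatory neurons, at 185 to 239 CPM in PBS and at 333, 254, 514 and 252 CPM in control IgG hippocampi (adjusted p = 0.0677).

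Markers of neighbouring regions other than cortex gave no call with edgeR, while Slc17a6, Ramp3 and Drd1 passed with DESeq2. In the thalamic list 7 of 12 were higher and 0 lower at an unadjusted p under 0.05 (median log2 fold change 0.46, smallest adjusted p 0.0834). Their summed CPM was 510.8 and 463.7 in mice 10 and 37, and 356.1 and 354.7 in mice 15 and 75, which lie inside the PBS range of 338.6 to 374.4. Slc17a6, the vesicular glutamate transporter of thalamic neurons, was at 28.04, 30.4, 38.2, 35.6 and 24.5 CPM in PBS and at 71.5, 34.5, 61.6 and 38.8 CPM in control IgG hippocampi, so that mouse 10 was highest for this gene. Rgs16, a regulator of G protein signalling, was likewise highest in mouse 10, at 18.1 CPM against 4.98 to 10.0 CPM in PBS. Slc17a6 differed by 0.11 on the log2 scale between α-IgLON5 cortex and hippocampus. In the striatal list 4 of 13 were higher and 2 lower (median log2 fold change 0.19).

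Genes induced by neuronal activity gave no call in either tissue with edgeR. Of 22 such genes 5 were higher and 1 was lower at an unadjusted p under 0.05 in the hippocampus (17 above 0 and 5 below, median log2 fold change 0.39, smallest adjusted p 0.118), and in the cortex 10 were higher and 0 lower at that level (median 0.53). Fos was at 28.01, 29.4, 25.4, 19.6 and 16.3 CPM in PBS and at 50.9, 39.7, 36.9 and 43.9 CPM in control IgG hippocampi, without overlap (0.85 ± 0.324, SE, adjusted p = 0.207), and its cortical log2 fold change was 0.90. Mouse 10 was the highest and mouse 37 the lowest control IgG mouse for Fos. Nr4a2 was at 45.2 to 120 CPM in PBS and at 173, 132, 177 and 109 CPM in control IgG hippocampi (0.80 ± 0.248, adjusted p = 0.118). Arc, at 68.7 to 202 CPM in PBS, was at 292, 190, 156 and 183 CPM in control IgG hippocampi (0.57 ± 0.342). Ptgs2, cyclooxygenase 2, was the lower member, at 9.59 to 32.2 CPM in PBS and 5.35 to 15.0 CPM in control IgG hippocampi. Of the 22 genes 15 were higher in α-IgLON5 cortex than hippocampus and 0 lower.

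Among genes of synapses and excitability, Gria1, Grin2b, Gabrb1, Kcnd3, Cacna1c and Cacna1h passed the adjusted p with DESeq2 and none with edgeR. The 26 glutamate and GABA receptor subunits were split, with 5 higher and 9 lower at an unadjusted p under 0.05. Gria1, the AMPA receptor subunit GluA1, was at 1016, 1001, 1003, 868 and 1144 CPM in PBS and at 634, 888, 455 and 889 CPM in control IgG hippocampi (log2 fold change -0.49 ± 0.137, SE, adjusted p = 0.0907). Mice 10 and 37 were below the PBS range and mice 15 and 75 inside it. Of 18 voltage-gated potassium channel genes 4 were lower and 0 higher, led by Kcnd3 at 136 to 160 CPM in PBS and 107, 139, 98.9 and 124 CPM in control IgG hippocampi (adjusted p = 0.0621). Of 16 sodium and calcium channel genes 6 were lower and 3 higher, and Cacna1c, the L-type calcium channel CaV1.2, was lower without overlap, at 88.8 to 140 CPM against 145 to 181 CPM in PBS (adjusted p = 0.0686).

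The target of the study's autoantibodies and the Tau gene differed by less than the spread between these libraries. Iglon5 was at 30.6, 24.9, 30.6, 26.1 and 27.2 CPM in PBS and at 28.5, 25.5, 28.7 and 25.7 CPM in control IgG hippocampi (log2 fold change -0.04 ± 0.0903, SE, adjusted p = 0.891). Of the other IgLON genes, Ntm was higher (0.31, adjusted p = 0.125) and Lsamp lower (-0.21, adjusted p = 0.167) at an unadjusted p under 0.05. Mapt, which encodes Tau, was at 480 to 539 CPM in PBS and 472 to 539 CPM in control IgG hippocampi (0.02 ± 0.0542). Of 18 genes of Tau and Tau kinases 3 were higher and 3 lower at an unadjusted p under 0.05. Mapk8, the kinase JNK1, was at 104 to 118 CPM in PBS and at 141, 126, 152 and 115 CPM in control IgG hippocampi, and Camk2b, a subunit of calmodulin kinase II, at 996 to 1394 CPM and at 840, 1070, 784 and 1088 CPM. Mapk8 and Camk2b passed with DESeq2.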

How the data were processed

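RNA was sequenced from the dissected cortex and hippocampus of the hemisphere opposite the infusion, from stranded mRNA libraries. The authors aligned reads to the mouse genome GRCm38 with STAR and deposited a table of raw counts per gene. The counting program, its annotation and its strand setting are not given in the sources used here, so overlapping and antisense genes cannot always be told apart. The table holds 55487 genes, of which 55227 were named.

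Counts were analysed in R 4.3.3 with edgeR 4.0.16. A gene was tested where 4 or more libraries held 10 or more counts (20271 genes). Counts were scaled by TMM, and fitted with all 27 libraries as 6 groups by the quasi-likelihood test with Benjamini-Hochberg adjustment over all genes. The word called stands for an adjusted p under 0.05, with a fold change above 2 where stated. SE is the log2 fold change divided by the square root of F. Exact permutation tests were two-sided. Python 3.11.15 and scipy 1.17.1 were used for them. In simulated counts of the same libraries, 99% of genes changed by 1.5 or 2 on the log2 scale were called. Those genes were drawn above a minimum level in PBS hippocampi, below which several called genes lie, such as Hc and Gm9269. No library was simulated with a shift toward cortex, so the share does not give the power in the real libraries. Replicates were distinct libraries, with a chi-square of 11.7 or more per degree of freedom in each of 16 pairs.

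Genes named in the text are the called genes, the 10 with the smallest adjusted p, up to 4 members of each list with the smallest unadjusted p, and a fixed set of Fc receptor, complement, glial, activity, pituitary and Tau genes, and not every gene of the rule is given a value. Csf1r, Cybb and Lyz2 were named after their values were seen. The members, lists and tests were chosen with earlier results of these data known. Mouse numbers pair the cortex and hippocampus of 1 animal, and over 9 mice the correlation of their deviations was -0.152 to 0.472 (median 0.138). DESeq2 1.42.0 and limma 3.58.1 were alternatives. Leaving out the α-IgLON5 hippocampus of mouse 9, leaving out both control IgG hippocampi of mice 10 and 37, fitting the 9 hippocampi with the cortex position, setting its 0% without mouse 9, and replacing its activity and immunoglobulin genes were chosen after seeing the data.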

Additional observations from a re-analysis of the deposited data

Results flagged for a closer look

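In the 4 control IgG and the 5 PBS hippocampi, 350 groups of values were examined for a highest or lowest library that stood apart by Dixon's criterion, and 23 did (6.57%). Chance alone gives about 1 in 20. All values here are CPM, with that of the nearest library of the group in second place.

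The PBS hippocampus of mouse 74 stood apart in pituitary genes, with the pituitary list at 3908 and 101.3, Gh at 2976 and 67.1, Prl at 800.4 and 11.4, Cga at 46.0 and 0.546, and Tshb at 10.2 and 1.79. The control IgG hippocampus of mouse 15 stood apart in immune genes, with Aif1 at 5.79 and 4.43, Fcgr3 at 13.8 and 10.6, Cd3g at 0.395 and 0.102, the antigen presentation list at 155.4 and 109.2, and the Fc receptor signalling list at 88.96 and 80.05. The PBS hippocampus of mouse 38 stood apart in Stab1 at 26.4 and 19.6, the border macrophage list at 48.17 and 34.57, and the antigen presentation list at 142.6 and 89.08.

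Among the called genes, Hc was lowest in PBS mouse 32 at 0.115 and 0.235, Gm36251 was highest in PBS mouse 33 at 1.97 and 0.853, and Gm9269 was highest in control IgG mouse 10 at 0.307 and 0.221. Further single values were Lef1 in PBS mouse 33 at 4.57 and 2.99, Ttr in PBS mouse 32 at 3.79 and 1.69, Ccdc153 in control IgG mouse 37 at 0.285 and 0.164, and Vim in control IgG mouse 75 at 55.3 and 46.7. The list of homeostatic astrocytes in PBS mouse 14 was at 9933 and 8706, that of oligodendrocyte precursors in the same library at 454.6 and 396, and the pan-cortical list in control IgG mouse 37 at 3128 and 2752.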

How the results depend on the processing

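The counts of 10 higher and 3 lower genes moved with most settings. They were 49 and 20 with DESeq2, 23 and 17 with genes of at least 1 count, 2 and 1 with at least 10 counts in every library, 27 and 12 with no fold threshold, and 26 and 8 without the α-IgLON5 hippocampus of mouse 9. With the mouse as a replicate block limma called 4 and 12, and without the block 11 and 15. Both counts were 0 with the 9 or the 13 hippocampi alone, with the cortex position as a covariate in all or in the 9 libraries, and without both control IgG mice 10 and 37. Leaving out each library gave 0 to 79 higher and 0 to 48 lower genes. The causes were not tested. DESeq2 size factors gave 8 and 3. The interaction count was 8 with DESeq2, 0 with a fixed mouse block, and 0 to 1 when leaving out a replicate, with the 1 arising without control IgG mouse 75. The cortex position difference was 26.28 points with 25 genes a side and 19.82 to 38.22 when leaving out a library.

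Directions turned for these log2 fold changes. With the cortex position as a covariate they were -0.0495 for Cux2, 0.0291 for Lct and -0.0737 for Mapt. With that covariate in the 9 hippocampi they were 0.83 for Cga, -0.0128 for Cux2, 0.0577 for Fam163b, 0.00171 for Gh, 0.0579 for Glis3, 0.27 for Lct, -0.0652 for Mapt, -0.0285 for Mybpc1, 0.18 for Prox1 and 0.12 for Sema5a. Without both mice 10 and 37 Mapt was at -0.0420 and Pomc at -0.12. Ttr was at -0.32 in limma with and without the block. Leaving out a replicate gave ranges of -0.00178 to 0.27 for Aif1, -0.79 to 0.61 for C3, -0.0216 to 0.183 for C4b, -0.0306 to 0.0858 for Cd68, -5.78 to 1.17 for Cga, -0.0137 to 0.169 for Fcer1g, -0.30 to 1.08 for Fcgr4, -0.00658 to 0.20 for Gfap, -4.31 to 1.27 for Gh, -0.00259 to 0.0598 for Mapt, -0.55 to 1.94 for Pomc, -5.29 to 0.88 for Prl, -1.39 to 0.14 for Tshb and -0.66 to 0.60 for Ttr. The values of Gm9269, Cd3g and Cxcl9 rest on few counts, and among the ranges above those of Cga, Prl and Gh are the widest.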
